A study of Mus musculus with 30 samples.

Results

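The genes Mef2a, Mef2c and Mef2d encode 3 of the MEF2 transcription factors, and their chromatin was followed here in mouse microglia with and without Mir137. Regions were taken from 10 lists of genotype-specific regions, 1 for each of 5 antibodies and 2 genotypes. A region belonged to a Mef2 gene if it overlapped the RefSeq gene span extended by 10 kb, or if its midpoint had that gene's end as the nearest protein-coding gene end within 100 kb. This rule gave 28 of 22399 listed regions, 7 at Mef2a, 16 at Mef2c and 5 at Mef2d.

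The cKO mice were Mir137loxP/loxP;Tmem119-CreERT2 and the cWT mice Mir137+/+;Tmem119-CreERT2, all on C57BL/6J, with 8 weeks given as their age. Mice received tamoxifen on 7 consecutive days, so both genotypes carried the inducible Cre and were exposed to the drug. Cre was driven from Tmem119, which marks microglia in the brain, so the deletion depends on cells that express it. About 100000 sorted primary microglia per genotype went into CUT&Tag, in which an antibody guides a transposase to cut and tag nearby DNA. The labels give 30 samples, 3 per antibody and genotype, without saying whether they came from separate mice. Each list stands for a whole group and holds no value per replicate, so no difference between genotypes could be set against the spread between samples, and no test of genotype was possible. Read depth is unknown. No region of any list lay within 10 kb of the mature Mir137 arms, so the lists give no check of the deletion, and the genotypes are used as labelled.

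MEF2 proteins bind AT-rich DNA through a MADS box and an adjoining MEF2 domain, and they form homodimers and heterodimers. Class IIa histone deacetylases hold them in a repressive state, while p38 and ERK5 kinases and calcium-dependent signals turn them into activators. In macrophages and microglia, MEF2 factors act at enhancers together with Pu.1, the myeloid lineage factor encoded by Spi1. Mouse microglial Mef2c is known for restraining inflammatory responses, and Mef2a is broadly expressed in tissue macrophages.

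The microRNA removed in cKO cells has a pair of mature arms, shown with the seed (bases 2 to 8) in capitals because a search for its complement follows. Both sequences are from RefSeq on GRCm38.p6, the assembly also called mm10.
miR-137-5p: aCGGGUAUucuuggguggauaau
miR-137-3p: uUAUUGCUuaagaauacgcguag

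The promoters below belong to the annotated starts that lay in a listed region or within 2 kb of its edge. Each run holds 300 bases, 250 before and 50 from the RefSeq start on, read along the gene. Capitals mark matches on either strand to a Pu.1 core (GAGGAAG), an AP-1 site (TGANTCA), the MEF2 consensus, or the DNA complement of either miR-137 seed (AGCAATA for the 3p arm, ATACCCG for the 5p arm). No match overlapped another.
Mef2a promoter, chr7:67372809-67373108, minus strand: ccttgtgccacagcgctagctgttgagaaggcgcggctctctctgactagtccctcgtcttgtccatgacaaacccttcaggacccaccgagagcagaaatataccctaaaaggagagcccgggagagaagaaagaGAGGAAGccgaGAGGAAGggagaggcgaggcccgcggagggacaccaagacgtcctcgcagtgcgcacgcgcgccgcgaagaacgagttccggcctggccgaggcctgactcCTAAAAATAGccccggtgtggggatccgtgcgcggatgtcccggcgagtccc
Mef2c promoter at the second start, chr13:83523406-83523705, plus strand: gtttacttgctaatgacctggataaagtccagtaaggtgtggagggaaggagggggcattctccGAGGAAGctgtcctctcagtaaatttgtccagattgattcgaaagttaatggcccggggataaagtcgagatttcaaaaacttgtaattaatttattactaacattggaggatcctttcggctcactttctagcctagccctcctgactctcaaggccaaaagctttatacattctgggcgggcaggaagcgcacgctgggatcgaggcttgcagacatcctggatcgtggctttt
Mef2c promoter at the third start, chr13:83573357-83573656, plus strand: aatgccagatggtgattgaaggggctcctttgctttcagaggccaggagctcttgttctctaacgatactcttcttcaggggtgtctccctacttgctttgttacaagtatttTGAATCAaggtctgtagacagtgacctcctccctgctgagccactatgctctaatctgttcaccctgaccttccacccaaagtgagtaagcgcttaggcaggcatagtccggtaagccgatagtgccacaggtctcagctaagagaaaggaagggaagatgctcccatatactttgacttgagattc
Mef2d promoter, chr3:88142122-88142421, plus strand: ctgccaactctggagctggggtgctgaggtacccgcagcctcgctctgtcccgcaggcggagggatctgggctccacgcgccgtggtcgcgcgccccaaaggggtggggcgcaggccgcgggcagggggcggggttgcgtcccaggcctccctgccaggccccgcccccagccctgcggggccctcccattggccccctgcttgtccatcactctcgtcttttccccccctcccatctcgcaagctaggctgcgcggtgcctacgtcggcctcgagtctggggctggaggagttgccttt

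The Mef2a promoter held 2 Pu.1 cores, at -114 to -108 and -103 to -97 with the start base counted as 0. Among 32851 RefSeq promoters of this length, 13.6% held at least 1 such core and 1.31% at least 2. A MEF2 consensus lay across the Mef2a start, at -2 to 7, a motif held by 3.19% of these promoters. The second Mef2c promoter held 1 Pu.1 core at -186 to -180. The third Mef2c promoter held an AP-1 match at -137 to -131, against 7.81% of all promoters. None of the 5 Mef2 promoters in the table, including that of the first Mef2c start (not shown), held the complement of a miR-137 seed in these windows. Transcripts and their UTRs were not searched, so this says nothing of miR-137 sites in the Mef2 transcripts. Over all promoters a seed complement was found in 2.16% for the 3p arm and 0.521% for the 5p arm. Their base composition differed, with 72.0% G and C at Mef2d, 62.3% at Mef2a, and 35.7% at the first, 47.0% at the second and 48.3% at the third of the Mef2c starts, against a median of 52.7% over all promoters. A match is a string of letters and says nothing of binding.

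Across the 3 genes, H3K27ac, the acetylation of histone H3 found at active regulatory DNA, was listed mostly in cWT, and RNA polymerase only in cKO. Of the 11 H3K27ac regions, 2 were in the cKO list and 9 in the cWT list, a cKO share of 18.2% (95% exact Clopper-Pearson interval 2.28 to 51.8%, counting of regions only). All 8 Pol II regions and all 6 regions of Pol II Ser5P, the polymerase form found near gene starts, were in the cKO lists. Both Pu.1 regions and the 1 region of H3K4me3, a mark of active promoters, were in the cKO lists as well. The intervals are wide, 63.1 to 100% for Pol II, 54.1 to 100% for Ser5P, 15.8 to 100% for Pu.1 and 2.5 to 100% for H3K4me3. The lists as a whole were 10.8% cKO for H3K27ac, 92.2% for Pol II, 98.0% for Ser5P, 95.9% for Pu.1 and 61.5% for H3K4me3. Each of these whole-list shares lay inside the interval of the Mef2 genes, so the direction of their regions was not distinguishable from that of the lists.

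**Figure D1:**
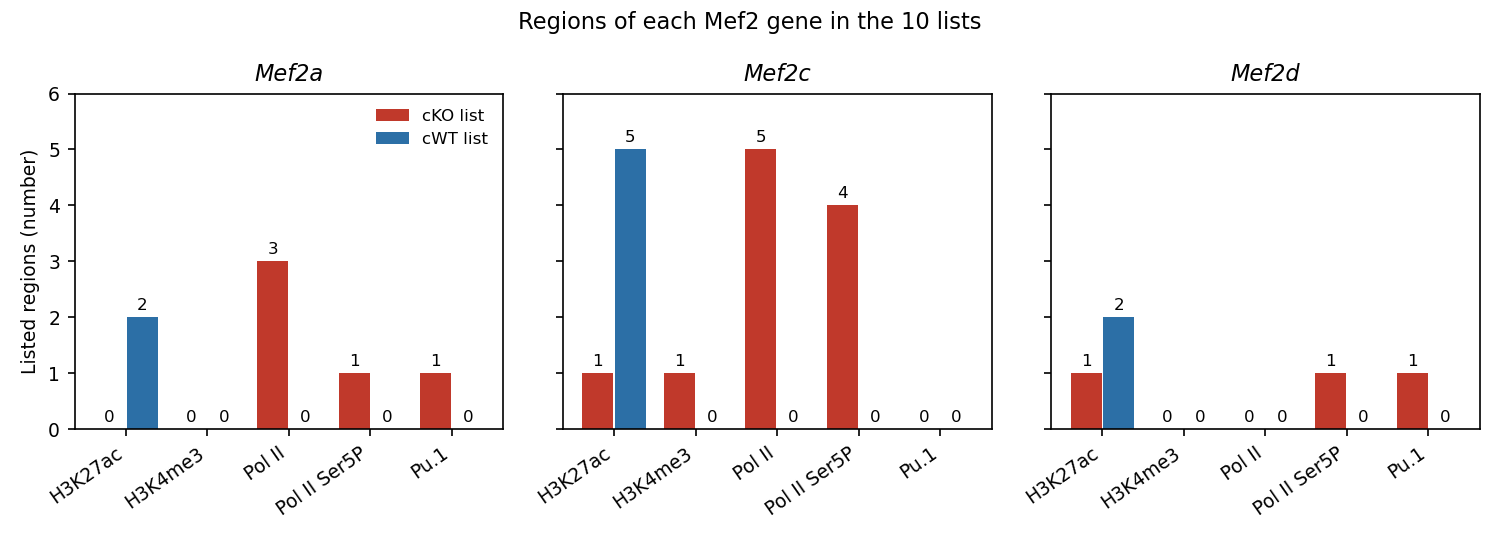
Number of listed regions at each Mef2 gene (vertical axis) by antibody (horizontal axis), with the cKO list in red left of the cWT list in blue; bars are counts and have no error. Mef2c had 5 cKO Pol II and 4 cKO Ser5P regions beside 5 cWT H3K27ac regions, and no gene had a cWT region of either polymerase form, Pu.1 or H3K4me3.

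How often a gene had a region at all sets the background. In the cKO H3K27ac list 4.31% of 21887 protein-coding genes had at least 1 region by the same rule, with Mef2c and Mef2d among them. In the cWT H3K27ac list the figure was 26.1%, with all 3 Mef2 genes. For cKO Ser5P it was 27.9%, with all 3 Mef2 genes, and for cKO Pol II 22.4%, with Mef2a and Mef2c. For cKO Pu.1 it was 4.96%, with Mef2a and Mef2d (2.68% had both cKO Pu.1 and cWT H3K27ac regions), and for cKO H3K4me3 8.47%, with Mef2c alone. In the cWT lists, H3K4me3 reached 5.62% of all genes, Pol II 2.16%, Ser5P 0.722% and Pu.1 0.187%, and none of the 3 Mef2 genes. Having no cWT region of either polymerase form was common, at 97.2% of genes. At least 2 cWT H3K27ac regions, as at each Mef2 gene, were found at 8.88% of genes. Regions in at least 4 of the 10 lists, again as at each Mef2 gene, were found at 5.51%, and in at least 5 lists, as at Mef2c, at 1.53%. These cut-offs were taken from the counts of the Mef2 genes, which met them by construction. Mef2b, the fourth family member, known mainly from germinal-centre B cells, had no region in any list, like 50.4% of protein-coding genes.

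The genes differ in length, so regions were also counted per 100 kb of the extended span. Mef2d, the shortest at 30.2 kb, had 9.97 regions per 100 kb over all lists. Mef2c, 163 kb long, had 8.74, and Mef2a, 145 kb long, had 3.02. Pooled over all protein-coding genes the value was 1.85 per 100 kb. A density at or above that of the gene was found for 7.28% of protein-coding genes at Mef2d, 9.49% at Mef2c and 31.4% at Mef2a.

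Mef2c (chromosome 13, 83504017 to 83667079, plus strand) carried the most regions, 11 in cKO lists and 5 in cWT lists. At least 5 cWT H3K27ac regions were found at 0.681% of protein-coding genes, at least 5 cKO Pol II regions at 0.151%, and at least 4 cKO Ser5P regions at 0.827%. Mef2c was 1 of 8 genes that met all 3 counts, 0.0366% of the total. These cut-offs were the counts of Mef2c itself, so it met them by construction. They take no account of gene length. By density over all 10 lists together, 9.49% of genes stood at or above Mef2c. That density does not correct the 3 counts for length, and in a short gene few regions give a high value. Its counts did not meet all 3 without regions under 300 bp, at 4 cKO Pol II, 4 cKO Ser5P and 4 cWT H3K27ac regions, nor with only regions at or below their list's median p, at 1 cKO Pol II, 1 cKO Ser5P and 2 cWT H3K27ac regions. All 16 regions lay inside the gene, where overlapping regions joined into 10 separate sites, 5 of them with regions from more than 1 list. Such sites were not counted over all genes, so this number has no background. RefSeq gives the gene 3 starts in the table used, at 83504034, 83523656 and 83573607, and the region nearest to the first of them was centred 14.3 kb past it. Exons, introns and UTRs were not annotated here.

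The most upstream Mef2c site paired a promoter mark with polymerase. An H3K4me3 region of the cKO list, chr13:83518115-83518464, overlapped a cKO Ser5P region, chr13:83518135-83518472, by 330 bp. Both lay more than 5 kb before the second start, with nearest edges 5192 and 5184 bp away, at no annotated start. This Ser5P region had the best rank of the 6 at the Mef2 genes, 1374 of 6163 by the deposited p-value.

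The site just past the second start held a cKO Pol II and a cWT H3K27ac region, each the best-ranked of its own list at this gene. A cKO Pol II region, chr13:83524389-83524796, began 733 bp after that start and ranked 588 of 4647. A cWT H3K27ac region, chr13:83524429-83525116, shared 368 bp with it and ranked 224 of 6995, within the first 3.20% of its list. At 688 bp it was the widest of the 28 regions. The authors' signal was 13.7 for the Pol II region and 11.8 for the H3K27ac region, on unstated scales that do not allow the lists to be compared.

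Further along Mef2c, H3K27ac of cWT and polymerase of cKO coincided once more and otherwise lay apart. At chr13:83540147-83540712 a cKO Ser5P region contained both a cKO Pol II region of 470 bp and a cWT H3K27ac region of 534 bp. The cWT H3K27ac regions at chr13:83532120-83532404, chr13:83573584-83573926 and chr13:83591963-83592274 stood alone, and the middle of these covered the third start and 73 bp of its promoter. Polymerase regions of cKO without H3K27ac lay at chr13:83579267-83579661 (Ser5P, with a Pol II region inside it), chr13:83585608-83585934 (Pol II) and chr13:83649985-83650332 (Ser5P). The only H3K27ac region of the cKO list at this gene, chr13:83604571-83604870, overlapped a cKO Pol II region, chr13:83604631-83605051, by 240 bp and lay 101 kb past the first start. No listed Pu.1 region of either genotype was assigned to Mef2c. The nearest listed regions left out by the rule were far away, a cKO Pol II region 429 kb before the gene and a cKO H3K4me3 region at Tmem161b 555 kb past it.

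**Figure D2:**
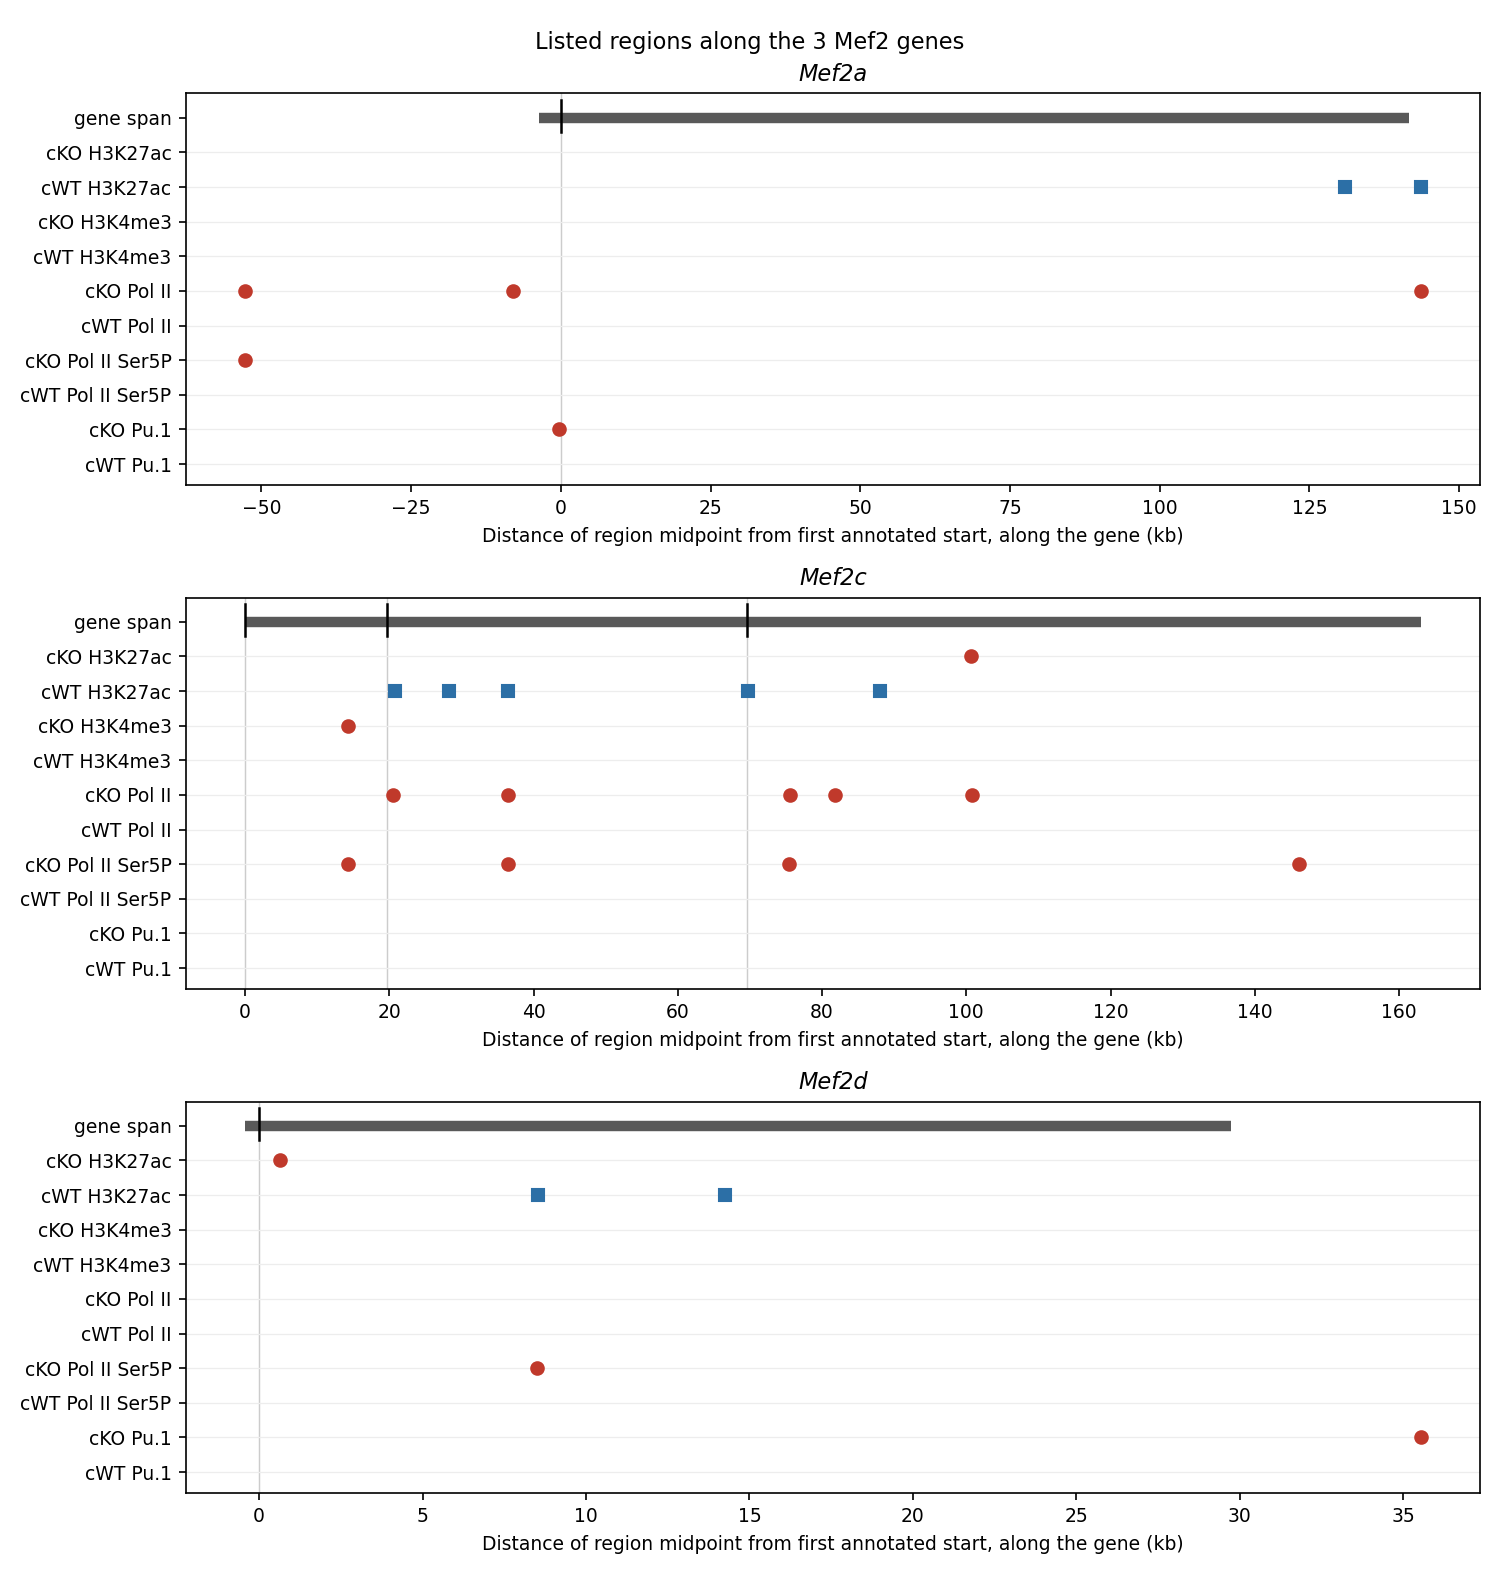
Midpoints of the 28 regions along each Mef2 gene, as distance from its first annotated start in the gene's own direction (kb, horizontal axis), in 1 row per list with cKO above cWT; red circles are cKO regions, blue squares cWT regions, the grey bar the RefSeq gene span and black ticks annotated starts. At Mef2c the regions fill the gene body from 14.3 to 146 kb, while at Mef2a the cKO Pu.1 region sits beside the annotated start, at -0.287 kb and inside the span.

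Mef2a (chromosome 7, 67231163 to 67376456, minus strand) had 5 regions in cKO lists and 2 in cWT lists. At least 3 cKO Pol II regions, a cut-off set at the count of Mef2a itself, were found at 1.48% of protein-coding genes, Mef2c among them. The count of Mef2a stayed at 3 with the nearest end within 50 kb and with merging. It was 2 with the extended span alone, with the nearest end alone and without regions under 300 bp. With the gene span alone it was 0, as it was with only regions at or below their list's median p. The only Mef2a start in the promoter table, 67372858, lies inside the RefSeq span and not at its upstream end. The Pu.1 region of the cKO list, chr7:67372922-67373368, was 447 bp wide and ended 64 bp before that start. This region was within the span as well, 3.31 kb from the upstream end. It shared 187 bp of the promoter printed above, from -250 to -64, a stretch that holds both Pu.1 cores but not the MEF2 consensus. It ranked 57 of 1017 in its list, with a deposited p-value of 0.246 and a signal of 18.5 against a list median of 12.7. Of all 1017 cKO Pu.1 regions, 19.8% overlapped a RefSeq promoter. No cWT Pu.1 region lay at Mef2a, in a list of 44.

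The other Mef2a regions lay away from the start. Pol II regions of the cKO list were found 8.00 kb before the start, at chr7:67380687-67381025, and 52.7 kb before it, at chr7:67425442-67425718. A cKO Ser5P region, chr7:67425492-67425713, lay wholly within the latter. From the upstream end of the span these Pol II regions were 4.23 and 49.0 kb away. Another cKO Pol II region, chr7:67229078-67229485, was 1.68 kb past the 3' end of the gene and overlapped a cWT H3K27ac region, chr7:67229032-67229442, by 365 bp. That pair had the end of Lysmd4, the neighbouring gene, as its nearest gene end, at 0.813 and 0.769 kb, and belonged to Mef2a only through the 10 kb extension. The remaining cWT H3K27ac region, chr7:67241662-67242173, lay within the gene 10.8 kb from its 3' end. No H3K27ac or H3K4me3 region of either genotype was listed within 100 kb of the Mef2a start. The closest region outside the rule was a cKO Pol II region 74.8 kb before the gene, nearer to Lrrc28.

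Mef2d (chromosome 3, 88141941 to 88172091, plus strand) had 3 regions in cKO lists and 2 in cWT lists. Its H3K27ac regions lay at different places in the lists of the genotypes, which lists of genotype-specific regions favour by the way they are made. Overlap between the H3K27ac lists was not counted over all regions. The cKO region, chr3:88142875-88143125, began 503 bp after the start, and the cWT regions, chr3:88150636-88151179 and chr3:88156339-88156919, lay 8.54 and 14.3 kb past it. Regions in both H3K27ac lists were found at 2.49% of protein-coding genes, with Mef2c and Mef2d among them. The first of the cWT regions contained a cKO Ser5P region of 398 bp, chr3:88150668-88151065, the only polymerase region at the gene, and it ranked 5335 of 6163. A cKO Pu.1 region, chr3:88177810-88178013, lay 5.72 kb past the 3' end, 35.5 kb from the start, and ranked 354 of 1017.

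At 4 of the 9 cWT H3K27ac regions of the Mef2 genes, a cKO Pol II or Ser5P region overlapped by at least 1 bp. These were the sites 1.12 and 16.8 kb past the second Mef2c start, the Mef2d site at 8.54 kb and the Mef2a site shared with Lysmd4. The share was 44.4% (95% exact interval 13.7 to 78.8%), and over all 6995 cWT H3K27ac regions it was 15.8%, inside that interval. The shorter region was covered by at least 89.5% at each of the 4. Of the 8 cKO Pol II regions 3 overlapped cKO Ser5P, 37.5% (exact interval 8.52 to 75.5%), against 51.2% of all cKO Pol II regions. Of the 6 cKO Ser5P regions 3 overlapped cKO Pol II, against 38.8% of all. In the labels' protocol the antibodies to H3K27ac and to both polymerase forms carry the same catalogue number, as do those to H3K4me3 and Pu.1, and the part of this in the overlaps was not tested. In bulk material a change in the number of cells of a type and a change per cell cannot be told apart.

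Of the 28 Mef2 regions, 0 lay under 0.05 by deposited p, against 169 of all 22399. Their p-values ran between 0.243 and 0.954 and their adjusted values between 0.949 and 0.976. All 28 carried the word secondary in their names, as did all but 907 of the 22399, and 10 of the 28 lay at or below the median p of their list. The rank of the Mef2 regions had a median at 62.8% of list length for cKO Pol II, 59.4% for cKO Ser5P and 61.0% for cWT H3K27ac. The 2 cKO Pu.1 regions stood at 5.60 and 34.8%. The sources used here do not say what the deposited p-values test, so a rank only orders regions within a list.

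**Figure D3:**
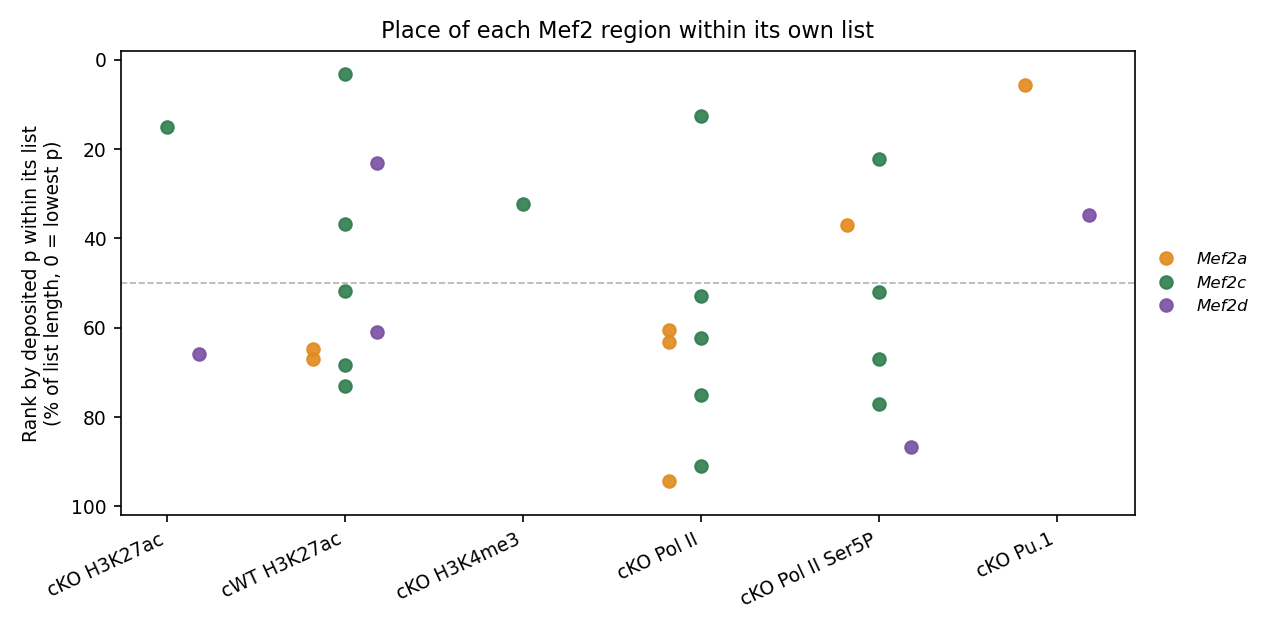
Rank of each of the 28 Mef2 regions within its own list by the deposited p-value, as % of list length with the lowest p at the top (vertical axis), for the 6 lists that held any (horizontal axis); colours are the 3 genes and the dashed line marks 50%. The highest places were those of a cWT H3K27ac region of Mef2c at 3.20%, the cKO Pu.1 region of Mef2a at 5.60% and a cKO Pol II region of Mef2c at 12.7%.

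The numbers in the region names run in genome order in all 10 lists, and some numbers are not listed; what the unlisted ones are is not stated. Between the first and last cWT H3K27ac regions of Mef2c, 67.8 kb apart, 9 numbers ran and 5 were listed. Of the 4 unlisted, 3 fell in the 32.9 kb before the region at the third start. Between its own first and last regions at Mef2c, cKO Pol II had 6 numbers over 80.7 kb with 5 listed, and cKO Ser5P had 6 numbers over 132 kb with 4 listed. At Mef2a 3 of 4 cKO Pol II numbers were listed, and at Mef2d both cWT H3K27ac numbers. The first and last number of each such stretch are listed by construction, which raises its listed fraction. Of the numbers up to the highest listed, the listed share was 35.1% for cWT H3K27ac, 47.0% for cKO Pol II and 65.6% for cKO Ser5P. The fractions at the Mef2 genes therefore cannot be set against these shares.

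The regulators and targets of MEF2 were described through a list of 40 genes chosen with earlier results of these data known. Of these, 32 had a region in at least 1 list, against 49.6% of all protein-coding genes. In cKO lists, 18 had Pol II regions, 45.0% against 22.4% of all genes, and 23 had Ser5P, 57.5% against 27.9%. H3K27ac of cKO was found at 9, 22.5% against 4.31%, H3K4me3 at 7, 17.5% against 8.47%, and Pu.1 at 3, 7.5% against 4.96%. In cWT lists, 23 had H3K27ac, 57.5% against 26.1%. The other cWT lists held few of these genes, with H3K4me3 at 2 (5.0% against 5.62%), Pol II at 1 (2.5% against 2.16%), Ser5P at 1 (2.5% against 0.722%) and Pu.1 at 0 (against 0.187%). These genes are longer than most, with a median span of 71.6 kb against 17.2 kb over all genes, and the part of length in these shares was not tested.

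Among the repressors, 7 of 8 had a region, against 49.6% of all protein-coding genes. The part of gene length in the counts of single classes was not tested. Hdac9, a class IIa deacetylase that is itself a MEF2 target, had 1 cKO H3K4me3 region and 9 cWT H3K27ac regions, and no polymerase region. Hdac5 had 3 cKO Pol II and 2 cKO Ser5P regions with 4 H3K27ac regions and 1 H3K4me3 region in cWT. Ncor1, a corepressor that works with deacetylases, had 2 cKO Pol II and 3 cKO Ser5P regions and 1 cKO H3K4me3 region. Hdac7 had none.

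Among kinases and phosphatases, 14 of 18 had a region, against 49.6% of all protein-coding genes, and 10 combined cWT H3K27ac with cKO polymerase. Both were found together at 15.9% of all protein-coding genes, and at all 3 Mef2 genes. Mapk14, the p38 kinase that phosphorylates MEF2 proteins, had 3 cKO Pol II and 4 cKO Ser5P regions, with 1 cKO and 2 cWT H3K27ac regions. Ppp3ca, a calcineurin subunit, had 3 of each polymerase form in cKO and 4 cWT H3K27ac regions. Camk2d, a calcium-dependent kinase, had 1 cKO region each of Pol II and Ser5P, with 1 cKO and 10 cWT H3K27ac regions. Sik3, a kinase that acts on class IIa deacetylases, had 1 cKO Pol II and 2 cKO Ser5P regions with 5 cWT H3K27ac regions. Mapk7, which encodes ERK5, had 2 cWT H3K27ac regions and nothing else.

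Coactivators had a region at 7 of 8 genes, against 49.6% of all protein-coding genes. Nfatc2, an NFAT factor, had the most, with 2 cKO Pol II, 2 cKO Ser5P and 4 cWT H3K27ac regions. Ep300, a histone acetyltransferase recruited by MEF2, had 1 cKO Ser5P and 3 cWT H3K27ac regions. Nfatc1 had 1 cKO Ser5P region with 3 H3K27ac regions and 1 H3K4me3 region in cWT. Of 6 target genes 5 had a region, against the same 49.6%. Klf2, induced through ERK5 and MEF2, had 1 region each of H3K27ac, H3K4me3, Pol II and Ser5P in cKO and 1 of H3K27ac in cWT. Nr4a1, an orphan nuclear receptor, had 2 cKO regions of each polymerase form and 1 cWT H3K27ac region. Klf4 had 1 Pol II, 2 Ser5P and 1 Pu.1 region in cKO lists and 1 Pol II region in cWT. Jun had 1 Ser5P and 1 H3K4me3 region in cKO lists and 2 Ser5P regions in cWT.

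**Figure D4:**
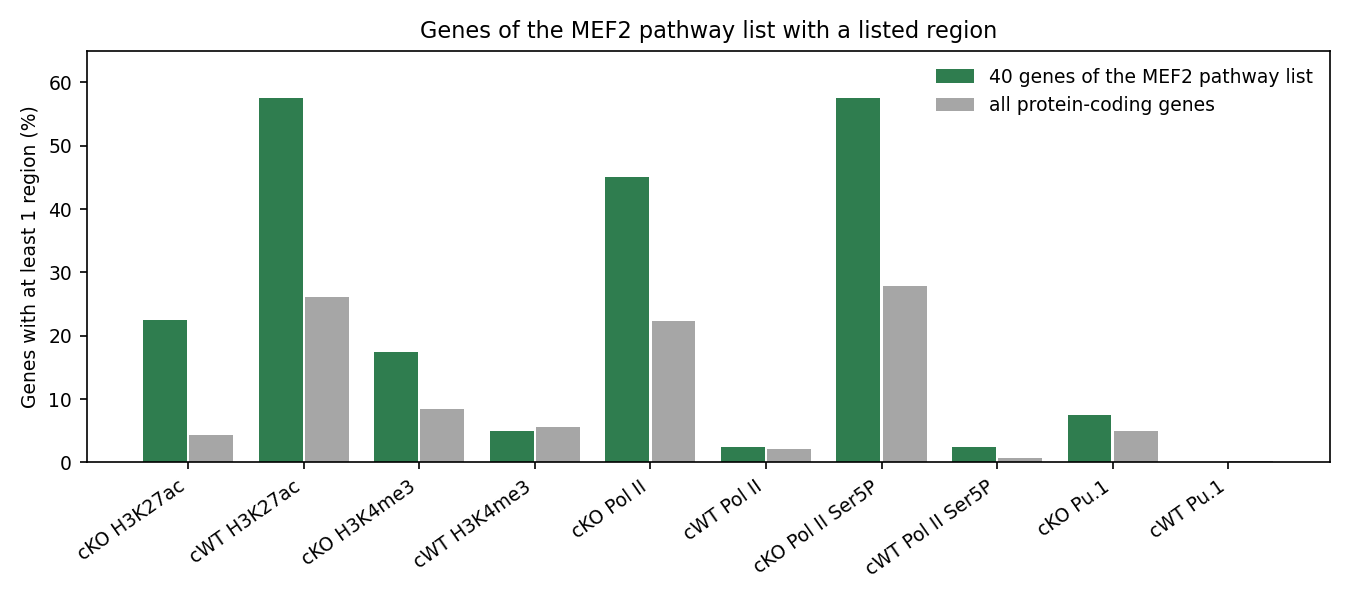
Share of genes with at least 1 region (%, vertical axis) in each of the 10 lists (horizontal axis, cKO left of cWT), in green for the 40 genes of the MEF2 pathway list and in grey for all 21887 protein-coding genes. The list stands at 57.5% in cKO Ser5P and in cWT H3K27ac, against 27.9% of all genes for the Ser5P list and 26.1% for the H3K27ac list.

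Genes with the most similar counts over the 10 lists were sought by the sum of absolute differences in region number, among 10849 other genes with any region. Gas7 had exactly the counts of Mef2a, and 7 more genes differed from Mef2a by 1 region. The predicted gene 4931408C20Rik had exactly the counts of Mef2d, and 26 genes differed by 1. Rad51b came nearest to Mef2c at a sum of 3, with 5 cKO Pol II, 4 cKO Ser5P and 4 cWT H3K27ac regions, and 6 genes followed at 4.

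For the labelled cell type, 9 of 10 microglial markers had a region in some list, with Aif1 the exception, against 49.6% of all protein-coding genes. So did 1 of 7 neuronal markers (Rbfox3), 3 of 5 astrocyte, 2 of 6 oligodendrocyte, 4 of 6 border macrophage and 4 of 5 endothelial and pericyte markers, and 1 of 5 of neutrophils and lymphocytes. Several classes other than microglia thus stood at or above the share of all genes, and a listed region does not measure expression. Since the lists hold only genotype-specific regions, these counts cannot decide the cell type. Mbp of oligodendrocytes had 5 cKO polymerase regions and 3 cWT H3K27ac regions. Neurons and endothelial cells also express Mef2c, and the part of other cells in its regions was not tested.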

How the data were processed

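Microglial CUT&Tag with 5 antibodies gave 30 samples, grouped by their titles into cKO and cWT. The tools HOMER 4.11, bedtools 2.30.0, MACS2 2.2.7.1 and Bowtie2 2.4.4 and the builds GRCm38 and mm10 are named, per the submitters' processing notes. How replicates were combined and regions called genotype-specific was not stated in these sources. Each deposited list gives region starts and ends, a name, a score, a signal on an unstated scale, and p-values by the authors, raw and adjusted. The score carries no information beyond p, since it equals 125 times the negative log2 of p, rounded down and capped at 1000, for 100% of regions.

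Positions were counted from 1 on mm10. Genes came from RefSeq (GRCm38.p6), 49943 on placed chromosomes and 21887 protein-coding. Starts and promoters came from a RefSeq promoter table, where all 3 genes matched. Regions were assigned, overlapped and ranked with Python 3.11.15, numpy 2.4.6, pandas 2.3.3, scipy 1.17.1 and matplotlib 3.10.9, and the assignment was tested on simulated data. Intervals are exact Clopper-Pearson at 95% and cover the counting of regions only. Named genes were the members, up to 4 genes with the most regions per pathway class, and the most similar genes; where similar genes tied beyond 5, the gene below the tie is named. Hdac7, Mapk7, Jun and single marker genes were named after their values were seen. The values of 1 gene that this rule names are not reported here. The members, lists and rules were chosen with earlier results of these data known. Alternatives changed the assignment, merged regions, and dropped narrow regions or those ranked low by p. No test of genotype was made.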

Additional observations from a re-analysis of the deposited data

How the results depend on the processing

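All 7 alternatives only dropped or merged regions among the same 28. The cKO share for H3K27ac then lay between 11.1 and 25%, inside its interval. For the other 4 antibodies the share was 100% by construction, since the Mef2 genes had no cWT region of these antibodies to begin with. Of cWT H3K27ac regions over cKO polymerase, 3 or 4 were counted with other assignments, merging, a width minimum, a larger overlap and a distance of 1 kb. Keeping regions at or below their list's median p left 10 Mef2 regions, and the count was then 1 of 3, since fewer regions remain by construction. The gene span alone left 22 regions, 2 of them at Mef2a. The nearest end alone left 26, and the pair shared with Lysmd4 was lost. No paired analysis was possible because the lists hold no value per replicate, and for the same reason no replicate could be left out. Only regions called genotype-specific are listed, and depth is unknown. A gene without a listed region may therefore still carry the mark, also in both genotypes.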
